A study of Mus musculus with 2 samples.

Results

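Control cluster 5 was the cluster with the highest ratios of Acta2 and Actg2 in the control library of a single-cell study of mouse salivary gland stroma. Its members here are the 370 genes that the authors' deposited table lists for that cluster, of 4419 genes listed for any of the 15 control clusters and 5238 listed anywhere in the series. Of these, 163 were listed higher and 207 lower than in the other control cells. The cluster held 8.93% of the control cells, a part recovered from the listed shares.

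Salivary glands of CD-1 mouse embryos, an outbred stock, were taken at embryonic day 16 and their stroma was studied in organoids, tissue-like aggregates grown in culture. The age label adds 7 to the embryonic day without saying what it counts. The control library was made without added FGF2, a fibroblast growth factor, and held 5023 captured cells. A library of organoids with FGF2, of the same stock, tissue and age label, held 10107 cells, with no FGF2 dose or time stated in the labels. Each group was 1 library, so no value could be checked on a replicate, and no difference was tested. Whether embryos were pooled is not stated.

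Myofibroblasts are fibroblasts that assemble actin and myosin into stress fibres, pull on the matrix around them and secrete collagen and fibronectin. Transforming growth factor beta (TGF-beta) and mechanical tension are known to induce them, and serum response factor with its actin-regulated coactivators switches on many of their contractile genes. They share most of these genes with smooth muscle cells, and in glands also with the myoepithelial cells that surround the secretory end pieces.

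Each entry of the authors' deposited table compares a cluster with all other cells of its library. It gives the percentage of cells with a count on either side and the natural log of the ratio of the averages, printed below as a fold. An offset of 1 was part of each average, so a fold understates the difference of a low gene. Entries start at 0.25 in size on that natural log scale, so all members had to differ, and absence from the list is not absence of the transcript. The depth per cell is unknown. The number of cells in a cluster was not stated and follows only roughly from its part of the captured cells, so shares are printed without an interval. Because the clusters were formed from these same cells, a difference between cluster 5 and the rest is a description and not a test.

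The marker genes of the label were at their highest in cluster 5. All 5 of them, Acta2, Actg2, Tagln, Cnn1 and Ccn2, led the table with the 5 largest folds. Acta2, the alpha actin of smooth muscle and myofibroblasts, was 3.73-fold higher and had a count in 100% of the cluster's cells against 88.9% of the other cells. Actg2, the gamma actin of visceral smooth muscle, was 3.61-fold higher with shares of 73.3% and 20.5%. Tagln, the actin-bundling protein transgelin, was 3.31-fold higher with shares of 100% and 77.2%. Cnn1, the calponin that binds actin in smooth muscle, was 2.86-fold higher with shares of 98.2% and 35.1%. Ccn2, a matricellular protein induced by TGF-beta and tension, was 3.28-fold higher with shares of 90.4% and 32.6%. Postn, a matrix gene of many activated fibroblasts and the other marker in that list, was not listed for cluster 5.

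Free RNA in droplets gives counts in cells that do not express a gene, so the shares were set beside those of Schwann-like control cluster 10 and macrophage-like control cluster 11. Acta2 had a count in 62.1% and 66.0% of those cells, and Tagln in 53.4% and 37.7%. Cnn1 had a count in 5.2% and 15.1% of them, Actg2 in 6.9% of cluster 10 and Ccn2 in 15.5% of cluster 10. Shares of Acta2 and Tagln are therefore given together with their folds. Of the 163 higher genes, 97 were listed for cluster 10, where their median share was 34.5% against 98.9% in cluster 5, and 103 were listed for cluster 11, with medians of 26.4% and 98.9%. For 6 of them, among them Tuba1a, Cryab, Vim, S100a6 and Nes, the share in cluster 10 was at or above that in cluster 5.

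Among 9 fibroblast markers, 2 were listed higher, Col1a1 and Col1a2, and 4 lower, Pdgfra, Col3a1, Dcn and Lum. Thy1, Prrx1 and Twist2 were not listed for cluster 5. Markers of the remaining cell types were few. Of 9 smooth muscle markers, 3 were listed higher: Cnn1, Lmod1 and Myh11. The other 6, Des, Smtn, Synpo2, Myocd, Pln and Kcnmb1, were not listed for cluster 5. Of 8 pericyte markers, Pdgfrb was listed, and it was lower. Myh11 was also the listed member of 8 myoepithelial markers, and none of the keratin genes or Trp63 was listed. No epithelial, endothelial, Schwann, macrophage, neutrophil, mast cell or proliferation marker was listed for cluster 5. Their levels in cluster 5 are thus not given, except that they did not meet the table's limits. Of 9 skeletal muscle markers, Acta1, the skeletal alpha actin, was listed higher. The cluster is called myofibroblast-like below, and these markers do not separate such a cell from smooth muscle.

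**Figure D1:**
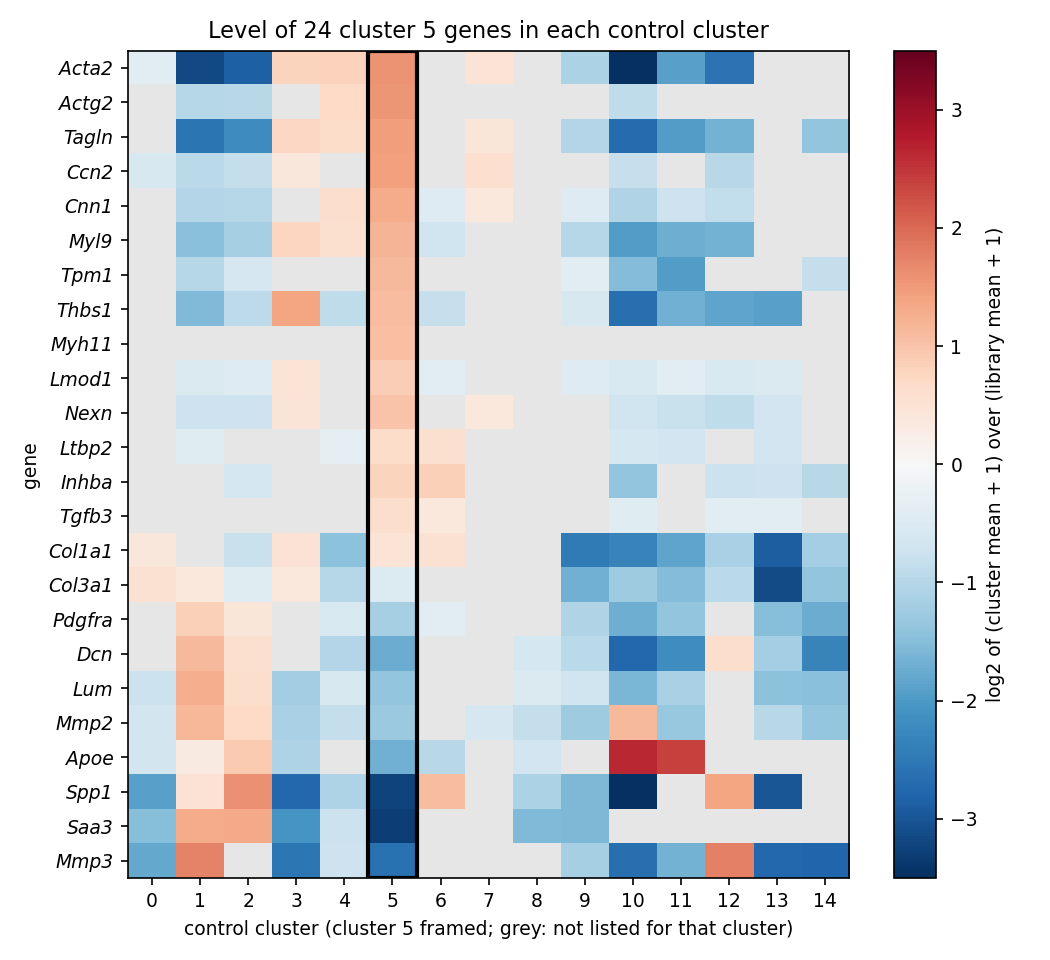
Level of 24 cluster 5 genes in each of the 15 control clusters, as the log2 of the cluster average plus 1 over the library average plus 1. Red is above and blue below the library average, grey cells are not listed, and cluster 5 is framed. Acta2 lay at 1.58 in cluster 5, 0.77 in cluster 3 and -3.17 in cluster 1.

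Recovered relative to the library average, Acta2 lay at 1.58 on the log2 scale in cluster 5, at 0.79 in cluster 4, 0.77 in cluster 3 and 0.47 in cluster 7. It lay at -0.40 in cluster 0, -1.10 in cluster 9, -1.89 in cluster 11, -2.57 in cluster 12, -2.85 in cluster 2, -3.17 in cluster 1 and -3.64 in cluster 10. With 1 library there is no spread by which neighbours in this order could be told apart. Actg2 lay at 1.55 in cluster 5 and 0.69 in cluster 4, and below the library average in the 3 other clusters that list it. Myh11, the smooth muscle myosin heavy chain, was listed for no other control cluster, where the share limit left little room for it. It had a count in 60.6% of the cells of cluster 5 and 11.2% of the others, which places 34.7% of all Myh11-positive control cells in the cluster. The corresponding part was 38.0% for Acta1, 33.0% for Ankrd1, 26.0% for Actg2, 21.5% for Cnn1 and 9.94% for Acta2. Set against the 8.93% of cells in the cluster, the positive cells of Acta2 were spread over the library, and those of Myh11 and Acta1 were more concentrated.

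The genes whose log ratios followed that of Acta2 most closely over the control clusters were Dstn, Tagln, Tpm2, Abracl, Myl6, Actg1, Actb and Ccn5. Their Pearson correlation with Acta2 ranged from 0.99 for Dstn over 7 clusters to 0.98 for Ccn5 over 6 clusters, among 244 genes that shared at least 6 clusters with Acta2. The points share 1 library and most of the other cells, so these values only describe it.

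Of the 19070 genes tested in the control library, 0.855% were listed higher in cluster 5, and 49 of its 163 higher genes were on the lists of contractile or actin cytoskeleton genes. Of 39 genes of the contractile apparatus, 28 were listed higher and 0 lower, with a median fold of 1.82 against 1.44 over all 163 higher genes. For 23 of the 28, cluster 5 had the highest ratio of the control clusters that list the gene. All 28 were picked as higher in cluster 5, so this count leans that way. Their median share was 99.9% in the cluster against 75.4% elsewhere in the library. Myl9, the regulatory light chain of smooth muscle myosin, was 2.59-fold higher. Tpm1 and Tpm2, the tropomyosins that lie along actin filaments, were 2.48-fold and 2.32-fold higher. Myh11 was 2.32-fold higher, Actn1, the alpha-actinin that crosslinks actin, 2.17-fold, Cald1, the actin-binding caldesmon, 2.02-fold and Lmod1, the leiomodin that nucleates filaments in smooth muscle, 1.98-fold.

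Lmod1 showed the largest difference in shares of any member, at 64.5 points, with a count in 91.1% of the cells of cluster 5 against 26.6% of the others. It was present in 1.7% of cluster 10 and 13.2% of cluster 11. Among the next largest differences were those of Cnn1 with 63.1 points, Fhl1 with 58.3, Ccn2 with 57.8, Plcb4 with 53.6, Actg2 with 52.8, Nexn with 51.9, Npr3 with 51.0 and Tes with 49.9. Fhl1 is a LIM-domain protein of muscle, and Nexn encodes a protein that binds actin filaments.

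Genes that regulate contraction were listed to a smaller extent. Ppp1r14a, an inhibitor of myosin phosphatase in smooth muscle, was 1.37-fold higher with shares of 54.6% and 11.4%. Ppp1r12a, the targeting subunit of that phosphatase, was 1.34-fold higher, and Mylk, the kinase of the light chain, 1.31-fold. In cluster 3 Mylk was 1.54-fold above the other cells. Of 30 genes for calcium handling and muscle ion channels, 5 were listed higher and 0 lower, and Ppp1r14a, Ppp1r12a, S100a6 and S100a11 were among the higher ones. The calcium store genes Atp2a2, Itpr1 and Ryr2 and the channel gene Cacna1c were not listed for the cluster.

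The wider actin cytoskeleton was higher as well. Of 39 genes for actin turnover and adhesion, 21 were listed higher and 0 lower, with a median fold of 1.56. Tmsb4x, the thymosin that binds free actin, was 2.32-fold higher, and Nexn, the filament protein nexilin, 2.21-fold. Dstn, which severs filaments, was 1.97-fold higher, and the cytoplasmic actins Actb and Actg1 were 1.94-fold and 1.88-fold higher. Tmsb4x had a count in 100% of the cluster and 99.7% of the other cells, and Actb in 100% and 98.9%, while Nexn had one in 98.9% and 47.0%. Focal adhesion genes of the list included Zyx with a 1.77-fold, Fermt2 with a 1.62-fold, Itga5 with a 1.58-fold and Ilk with a 1.33-fold higher level. Itga5 and Itgb1 encode the 2 chains of a fibronectin receptor, and Itgb1 was 1.48-fold higher.

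**Figure D2:**
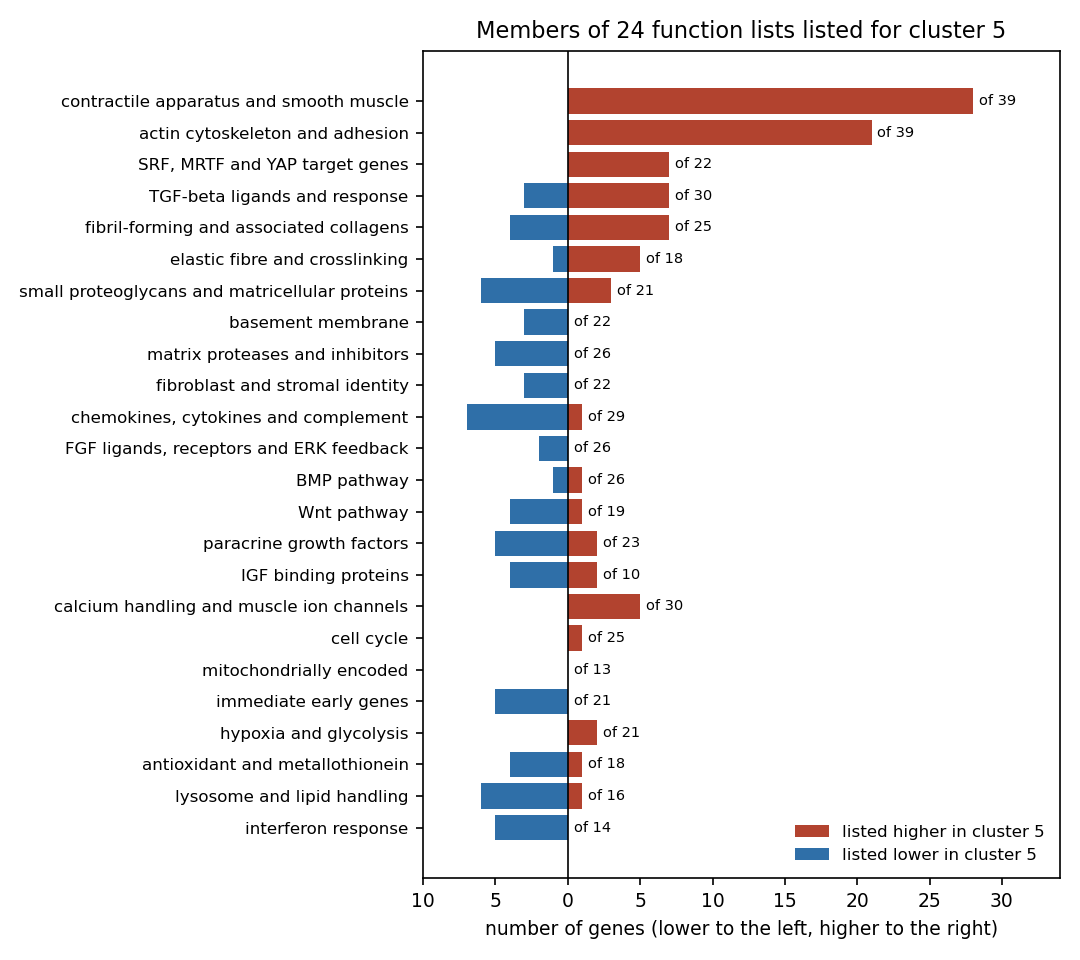
Number of genes of 24 function lists that were listed higher (right, red) or lower (left, blue) in cluster 5, with the size of each list. The contractile list had 28 higher and 0 lower of 39, and the matrix protease list 0 higher and 5 lower of 26.

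Binding sites of serum response factor were looked for in the promoters of the members, since many contractile genes are known to carry them. The site, the CArG box, is CC and GG around 6 bases that are each A or T, and it reads the same on both strands. RefSeq promoters (GRCm38.p6) from 250 bases before to 50 after a gene's start matched 126 of the 163 higher genes by symbol. Of these, 15 held a box, or 11.9%. The share was 0.680% for the lower genes (1 of 147 matched), 1.98% for genes of the control table (68 of 3432) and 1.81% for all promoters (488 of 27025). Within the higher genes it was 20% for those with a natural log ratio of at least 0.5 (6 of 30) and 9.38% for the rest (9 of 96). A match describes letters in this window and does not show that the site is used. The promoters of the 5 members with a natural log ratio of at least 0.5 and a box within the 180 bases before the start are printed below, 5′ to 3′ on the gene's strand, with the box in capitals. That of Acta2, the leading gene, is added for comparison and held no exact box in the window. It holds the near matches ccctatatgg and ccttgtttgg, each off the pattern by a single base. Near matches were not counted for any gene, so the lack of an exact box does not show that such a site is absent.
Myl9 (chr2:156775284-156775463, plus strand): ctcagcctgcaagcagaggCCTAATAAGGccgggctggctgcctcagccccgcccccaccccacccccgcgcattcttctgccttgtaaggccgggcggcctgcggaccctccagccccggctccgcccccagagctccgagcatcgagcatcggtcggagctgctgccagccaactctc
Actg1 (chr11:120348496-120348675, minus strand): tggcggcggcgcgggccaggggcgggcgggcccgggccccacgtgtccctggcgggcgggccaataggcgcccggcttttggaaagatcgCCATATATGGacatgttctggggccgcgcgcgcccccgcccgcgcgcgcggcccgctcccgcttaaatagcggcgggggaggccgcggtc
Filip1l (chr16:57549062-57549241, plus strand): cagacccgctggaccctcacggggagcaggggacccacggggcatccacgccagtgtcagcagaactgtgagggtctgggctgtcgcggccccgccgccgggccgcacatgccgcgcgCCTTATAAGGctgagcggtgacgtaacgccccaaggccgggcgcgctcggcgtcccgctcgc
Cnn2 (chr10:79988420-79988599, plus strand): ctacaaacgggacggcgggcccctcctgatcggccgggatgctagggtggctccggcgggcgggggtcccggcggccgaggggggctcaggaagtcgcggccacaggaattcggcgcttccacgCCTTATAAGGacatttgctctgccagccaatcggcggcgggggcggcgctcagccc
Myl6 (chr10:128493010-128493189, minus strand): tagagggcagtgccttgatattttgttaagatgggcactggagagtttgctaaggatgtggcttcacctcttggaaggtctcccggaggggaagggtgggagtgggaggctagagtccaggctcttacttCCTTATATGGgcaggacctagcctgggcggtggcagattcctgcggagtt
Acta2 (chr19:34255374-34255553, minus strand): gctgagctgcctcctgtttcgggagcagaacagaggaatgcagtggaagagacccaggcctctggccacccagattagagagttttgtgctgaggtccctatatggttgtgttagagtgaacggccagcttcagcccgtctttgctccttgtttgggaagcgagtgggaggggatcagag

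The boxes of these promoters began 161 bases before the start in Myl9, 90 in Actg1, 62 in Filip1l, 56 in Cnn2 and 50 in Myl6. The letters CCTTATAAGG occurred in Filip1l, Cnn2, Vcl, Glipr2 and Myadm. The other higher genes with a box were Vcl, Fermt2, Fhl1, Lurap1l, Acta1, Lmcd1, Glipr2, Fhl2, Myadm and Rsu1. Of the 15 genes with the largest ratios, 7 were matched and 1 of them, Myl9, held a box. Cnn1, Tpm1, Tpm2, Tmsb4x and Actn1 were matched and held none.

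Of 22 target genes of serum response factor, its coactivators and the tension-sensitive coactivator YAP, 7 were listed higher and 0 lower. Their median fold was 1.92. Besides Ccn2 they were Thbs1 with a 2.39-fold, Crim1 with a 2.06-fold, Ankrd1 with a 1.92-fold, Amotl2 with a 1.46-fold, Vgll3 with a 1.37-fold and Ccn1 with a 1.32-fold higher level. Ankrd1, a nuclear ankyrin-repeat protein induced in stressed muscle, had a count in 49.2% of the cells of cluster 5 and 9.8% of the others and was higher in no other control cluster. Thbs1, the matrix protein thrombospondin that can activate latent TGF-beta, was still higher in cluster 3, at 3.25-fold over the other cells there. Srf itself and the coactivator genes were not listed for the cluster.

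Ligands of the TGF-beta family were higher in cluster 5. Tgfb3 was 1.62-fold higher with shares of 76.4% and 29.7%, and Tgfb2 was 1.33-fold higher with shares of 67.0% and 24.5%. Inhba, the subunit of activin A, was 1.86-fold higher with shares of 98.7% and 63.5%. In all, 7 of 30 genes of the TGF-beta list were higher, Ccn2, Ltbp2 and Cthrc1 among them, and 3 were lower. Ltbp2, a latent TGF-beta binding protein family member of elastic fibres, was 1.67-fold higher. The lower genes were the coreceptor Tgfbr3, which was 1.48-fold lower, and Tgfbi and Serpine2, which were 1.58-fold and 1.42-fold lower. Tgfb1, the receptors Tgfbr1 and Tgfbr2 and the feedback genes Smad7 and Skil were not listed for cluster 5. Tgfb2 was not highest here: its level was above that of cluster 5 in clusters 9 and 10.

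Matrix genes were split. Of 25 genes for fibrillar and associated collagens, 7 were higher and 4 lower. Col1a1 was 1.46-fold higher, Col1a2 1.30-fold and Fn1, the fibronectin gene, 1.49-fold. Col8a1 and Col12a1 were 1.44-fold and 1.35-fold higher, and Serpinh1, the collagen chaperone, 1.38-fold. Col3a1, the other main fibrillar collagen of stroma, was 1.43-fold lower although 100% of the cluster's cells had a count, and Col6a1 and Col6a3 were 1.37-fold and 1.54-fold lower. Of 18 genes for elastic fibres and their crosslinking, 5 were higher and 1 lower. Lox, the enzyme that crosslinks collagen and elastin, was 1.65-fold higher, and Fbln2 1.84-fold, Mfap5 1.38-fold, Fbn1 1.32-fold and Fbln5 1.30-fold. Fbln1 was 1.53-fold lower. Of 22 basement membrane genes, 0 were higher and 3 lower, namely Col18a1, Col15a1 and Lama4 at 1.91-fold, 1.72-fold and 1.34-fold.

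Small proteoglycans and matricellular proteins were lower for 6 of 21 genes and higher for 3. The higher ones were Thbs1, Ccn4 with a 1.80-fold and Ccn5 with a 1.54-fold higher level. The lower ones were Spp1, Dcn, Mgp, Lum, Thbs2 and Sparcl1. Dcn, the proteoglycan decorin that binds collagen fibrils, was 3.57-fold lower and Lum, its relative lumican, 2.79-fold. The 2 genes differed in shares. Dcn had a count in 86.2% of the cells of cluster 5 and 84.7% of the others, whereas Lum had a count in 28.3% and 53.4%.

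A few secreted growth factors were listed. Bdnf, a neurotrophin, was 1.33-fold higher with shares of 82.6% and 38.9%, and Nrg1, a ligand of ErbB receptors, was 1.33-fold higher with shares of 63.9% and 19.7%. Nrg1 was listed for no other control cluster, where the share limit left little room for it. Of 23 paracrine factors the other listed members were lower: Angptl2, Igf2, Igf1, Mdk and Kitl, from 1.90-fold to 1.33-fold. Csf1, the growth factor of macrophages, was 1.38-fold higher, and Pappa, a protease that cleaves insulin-like growth factor binding proteins, 2.18-fold. Of 10 genes of the insulin-like growth factor list, Igfbp2 and Igfbp7 were 1.64-fold and 1.45-fold higher, and Igfbp3, Igfbp4, Igf1 and Igf2 were lower. No ligand or receptor of the FGF list was listed, and its feedback genes Spry4 and Spred1 were 1.33-fold and 1.41-fold lower.

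Of the 163 higher genes, 96 had their highest ratio in cluster 5 and 42 were higher in no other control cluster. All 163 were picked as higher in cluster 5, and only clusters that list a gene were compared. Both counts therefore lean high, and no matching count was made for other clusters. Among the 15 largest of these 42 were Tpm1, Myh11, Ankrd1, Zyx, Fhl1, Pdlim7, Gadd45g, Uba6, Acta1, Tns1, Hacd1, Cfl1, Fscn1 and Rps2. They include the tropomyosin Tpm1, the filament-severing cofilin Cfl1, the focal adhesion proteins Zyx and Tns1 and the actin crosslinker Fscn1. Pdlim7, a PDZ and LIM protein of stress fibres, was 1.57-fold higher with shares of 100% and 63.4%. Acta1 was 1.56-fold higher with shares of 32.5% and 5.2%. Of the higher genes, 9 were listed for no other control cluster in either direction, among them Myh11, Ankrd1, Fhl1, Acta1, Ppp1r14a and Nrg1. All of those named but Fhl1 had a count in 7.64% to 23.6% of all control cells. At such shares the share limit left little room for a lower entry in another cluster, so this count partly reflects that limit.

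**Figure D3:**
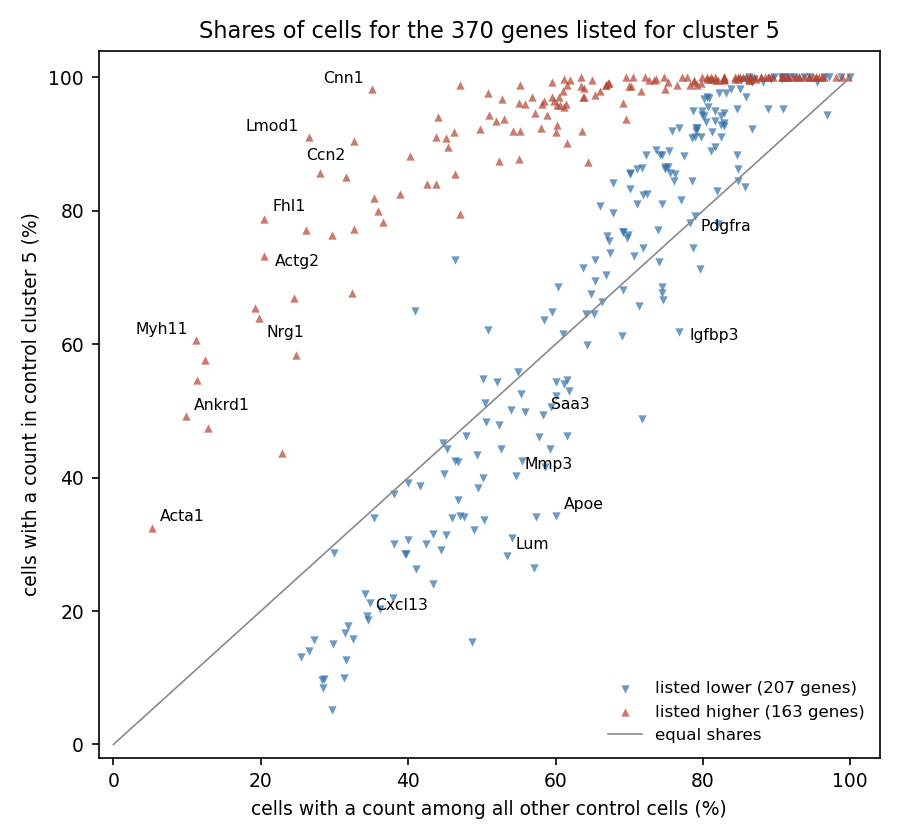
Percentage of cells with a count in cluster 5 (vertical) against all other control cells (horizontal) for the 163 higher genes (red) and 207 lower genes (blue), with the line of equal shares. All 163 higher genes lie above the line, and 116 of the 207 lower genes lie on or above it as well.

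In shares of cells the higher and lower genes did not mirror each other. The 163 higher genes had a count in a median of 98.9% of the cells of cluster 5 and 66.9% of the other cells, and 76 of them in at least 99% of the cluster. Their shares were larger in the cluster in all 163 cases, by 0.3 to 64.5 points. The 207 lower genes, 1.09% of the genes tested, had a median of 72.6% in the cluster against 69.2% elsewhere in the library. For 116 of them the share in cluster 5 was equal to or above that in the other cells although the average was lower. Their folds had a median of 1.44 and reached 10.7. A lower average at an equal or larger share corresponds to a lower average value per positive cell, not to fewer positive cells. Depth per cell was not given, and its part in this was not tested.

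Control cluster 4 bears on these shares, since it held 10.6% of the control cells and its own listed genes had a median share of 10.9% against 84.8% elsewhere. With it taken out of the other cells, 44 of the 99 lower genes that were also listed for cluster 4 kept a share at or above the rest, against 58 with it. For the 60 higher genes listed for both, the median difference of shares was 11.6 points without cluster 4 and 19.3 with it. Acta2 in cluster 4 was 1.90-fold above the other cells at a share of 83.2% against 90.7%.

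Inflammatory and fibroblast genes led the lower genes. Saa3, an acute phase protein, was 10.7-fold lower, with shares of 49.4% in the cluster against 58.3% elsewhere in the library. Spp1, the secreted phosphoprotein osteopontin, was 10.2-fold lower with shares of 95.3% and 90.9%. Relative to the library average, Saa3 lay at -3.30 on the log2 scale in cluster 5, 1.31 in cluster 1 and 1.33 in cluster 2. Spp1 lay at -3.23 in cluster 5, 0.50 in cluster 1 and 1.59 in cluster 2. Saa3 was lowest in cluster 5 of the clusters that list it, and Spp1 was lower still in cluster 10. Mmp3, the protease stromelysin, was 6.56-fold lower with shares of 40.3% and 54.6%. Lpl, lipoprotein lipase, and Cxcl13, a B cell chemokine, were 5.39-fold and 5.36-fold lower. Crabp1, a retinoic acid binding protein of embryonic mesenchyme, was 4.11-fold lower with nearly equal shares of 68.2% and 69.1%. Igfbp3, Apoe and Mgp were 3.84-fold, 3.42-fold and 3.12-fold lower, and Cpxm1 and Itm2a 3.04-fold and 2.92-fold. Of all 207 lower genes, 60 had their highest level in cluster 1 and 46 in cluster 2.

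Genes of chemokines, cytokines and complement were lower for 7 of 29, and Csf1 was the 1 higher member. Beside Saa3 and Cxcl13 the lower ones included Ccl8, C1s1, Ccl2 and Cxcl5. C1s1, a complement protease, had a count in 26.5% of the cells of cluster 5 and 57.1% of the others. Other members with large drops in share were Apoe, Lum, a (the agouti gene), Cp, Fxyd1, Gpm6b, Rgs2 and Gda, at -25.7 to -20.0 points. Of 26 matrix proteases and inhibitors, 0 were higher and 5 lower: Mmp3, Mmp2, Ctsb, Ctsk and Plat. Mmp2, a gelatinase of fibroblasts, was 2.62-fold lower at shares of 81.7% and 77.0%.

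Identity genes of fibroblasts were lower, at shares close to or above those of all other control cells. Pdgfra, the PDGF receptor alpha that marks fibroblasts, was 2.37-fold lower, and its share was 78.2% against 78.3% in the other cells. The share was 6.9% in cluster 10 and 17.0% in cluster 11, both far below the share in cluster 5. Pdgfrb was 1.36-fold lower with a share of 95.5%. With Crabp1, these were the 3 lower genes of 22 in the fibroblast and stromal identity list, and 0 were higher. With control cluster 4 taken out of the other cells, the share there was 87.3% for Pdgfra, 74.4% for Crabp1 and 89.8% for Pdgfrb. Against these values the share in cluster 5 was lower for Pdgfra and for Crabp1, at 68.2%, and higher for Pdgfrb. Thy1, Prrx1 and Twist2 were not listed for the cluster.

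Several stress and signalling lists were on the lower side. Of 21 immediate early genes, 5 were lower and 0 higher: Egr1 at 1.84-fold, Fos at 1.67-fold, Junb at 1.47-fold, Ier2 at 1.45-fold and Fosb at 1.37-fold. Of 14 interferon response genes, 5 were lower and 0 higher: Ifitm2, H2-K1, Ly6e, B2m and Ifitm3, from 1.60-fold to 1.44-fold. Of 18 antioxidant genes, Mt1, Mt2, Sod2 and Hmox1 were lower and Gpx1 higher, with the metallothioneins Mt1 and Mt2 at 2.41-fold and 2.08-fold. Of 16 genes for lysosomes and lipid handling, 6 were lower, with Lpl and Apoe first, and Fabp5, a fatty acid binding protein, was 2.35-fold higher. Of the Wnt list, Sfrp1, Sfrp2, Fzd1 and Tcf4 were lower and Ccn4 higher, and of the BMP list Grem1, an antagonist, was 1.61-fold lower and Fstl1 1.41-fold higher. Of 25 cell cycle genes, Cdkn1a, an inhibitor of division, was 1.39-fold higher and 0 were lower. Gapdh and Pfkp were the 2 listed of 21 hypoxia and glycolysis genes, both higher.

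Gene models that overlap ribosomal RNA sequence were lower in cluster 5. AY036118 was 6.15-fold lower at shares of 94.4% and 96.9%, and Gm42418 was 5.04-fold lower at 100% in both. The 2 were 8.47-fold and 4.25-fold higher in cluster 4. None of the 13 mitochondrially encoded genes was listed for cluster 5. The part of RNA quality in the lower genes was not tested.

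Control cluster 3, with 11.2% of the control cells, also listed Acta2 and Tagln higher, as did clusters 4 and 7. Both clusters 5 and 3 are compared with mostly the same other cells, so their lists are not independent, and a count of shared genes describes the lists only. In the control library 0.75% of the genes tested were listed higher and 0.488% lower in cluster 3. For 148 genes both clusters had an entry, 40% of the list of cluster 5 and 62.7% of the 236 entries of cluster 3. Of these, 66 were higher in both, 79 lower in both and 3 opposite.

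**Figure D4:**
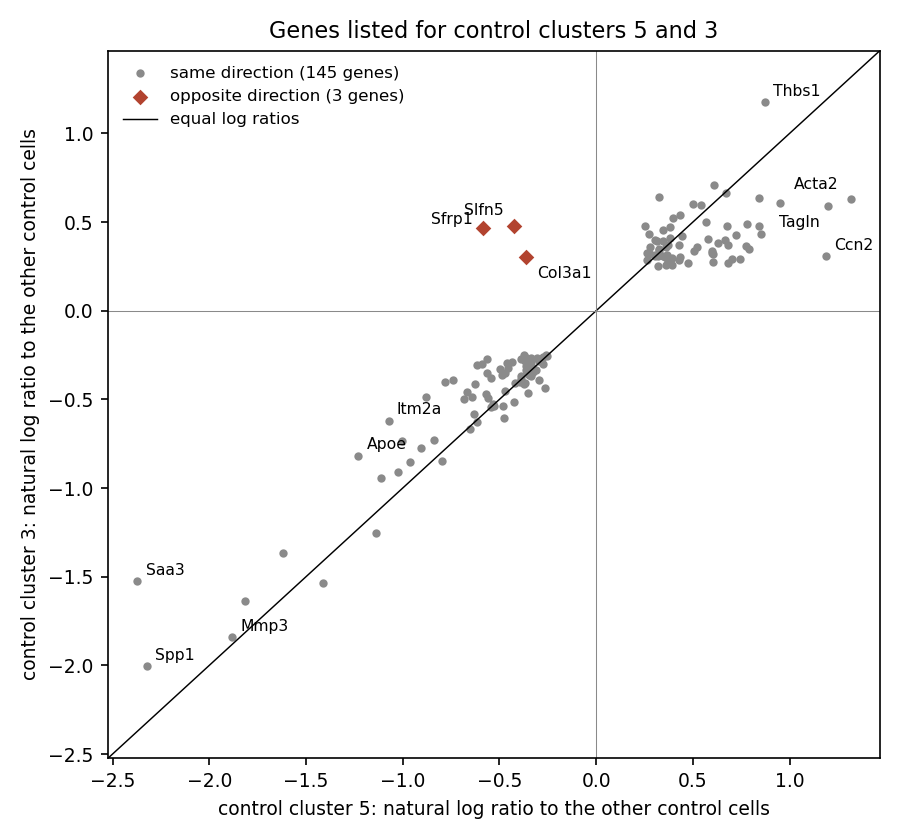
Natural log ratio of 148 genes in cluster 5 (horizontal) and cluster 3 (vertical), each against the other control cells, with the line of equal ratios. Ccn2, Acta2 and Tagln lie to the right of the line, and the 3 opposite genes Sfrp1, Slfn5 and Col3a1 lie in the upper left.

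Set directly against each other, the 2 clusters differed in both directions. Ccn2 was 2.08-fold higher in cluster 5 than in cluster 3, Acta2 1.75-fold and Tagln 1.66-fold. Nexn, Fabp5, Cald1, Dstn, Actn1 and Tpm2 were among those that followed, at 1.47-fold to 1.38-fold. Of the 15 contractile members listed for both clusters, 14 had a higher level in cluster 5. All of these members were picked as higher in cluster 5, so the count leans that way. Actg2, Cnn1, Tpm1 and Myh11 were not listed for cluster 3. The 11 members of the collagen and elastic fibre lists that both clusters listed all had a lower level in cluster 5. They ran from 0.55 of the level in cluster 3 for Col3a1 to 0.99 for Col1a1, with Fbln2 at 0.94 and Lox at 0.93. With 1 library there is no spread by which values near 1 could be told from equal levels. Members that cluster 3 did not list are left out: Col8a1, Serpinh1 and Fbln5, higher in cluster 5, and Col6a1, Plod1 and Fbln1, lower in it. The count of 11 therefore covers only part of these lists. Sfrp1, a secreted Wnt antagonist, was 2.57-fold higher in cluster 3, Slfn5 2.23-fold and Col3a1 1.82-fold. Among the 148 genes listed for both clusters, Sfrp1 showed the largest difference. Genes that cluster 3 did not list, such as Lpl, Igfbp3 and Dcn, have no ratio between the 2 clusters. Slfn5 had a count in 28.5% of the cells of cluster 5 and 75.5% of cluster 3. Saa3 was 2.35-fold higher in cluster 3, and Itm2a, Apoe, Gas1, Gpm6b, Igfbp4 and Mfap5 were 1.56-fold to 1.30-fold higher there.

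Cluster 6, with 7.16% of the control cells, listed 0.75% of the genes tested higher and 0.797% lower. For 119 genes both clusters 5 and 6 had an entry, with 24 higher in both and 49 lower in both. Another 26 were higher in cluster 5 but lower in cluster 6, and 20 the reverse. Cluster 6 also listed TGF-beta ligand genes higher, while most of the contractile members listed for it were lower. Inhba was 1.90-fold above the other cells in cluster 6 and 1.86-fold in cluster 5, Ltbp2 1.54-fold and 1.67-fold, and Tgfb3 1.34-fold and 1.62-fold. Tgfb2 and Cthrc1 were also listed higher for both. Among contractile members listed for both clusters, 6 of 9 were lower in cluster 6, among them Myl9, Tpm2, Cnn1 and Lmod1. Spp1 was 2.31-fold above the other cells in cluster 6 and 10.2-fold below them in cluster 5.

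FGF2 cluster 4, with 7.80% of the FGF2 cells, was 1 of 3 clusters of the other library that listed Acta2 and Tagln higher. FGF2 cluster 13, with 1.41% of the cells, had larger ratios, 9.51-fold for Acta2, 9.04-fold for Tagln and 2.19-fold for Cnn1, at lower shares of 76.8%, 88.7% and 26.8%. FGF2 cluster 11 listed Acta2 4.93-fold higher together with the epithelial genes Epcam and Krt14, at 10.2-fold and 3.90-fold. In FGF2 cluster 13, 1.51% of the genes tested were listed higher and 4.77% lower. Of its 1258 entries 214 were shared with cluster 5, 46 higher in both, 151 lower in both and 17 opposite, which is 17.0% of its list and 57.8% of that of cluster 5. FGF2 cluster 4 is described further here. Its values are relative to the other FGF2 cells, which are not the same mixture as the control cells, so folds of the 2 libraries stand side by side without a test. In that library 0.982% of the 20056 genes tested were listed higher and 0.813% lower in its cluster 4. Control cluster 5 and FGF2 cluster 4 both listed 168 genes, 45.4% of the 370 of cluster 5 and 46.7% of the 360 of FGF2 cluster 4. Of them, 87 were higher in both, 76 lower in both and 5 lower in cluster 5 but higher in FGF2 cluster 4.

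**Figure D5:**
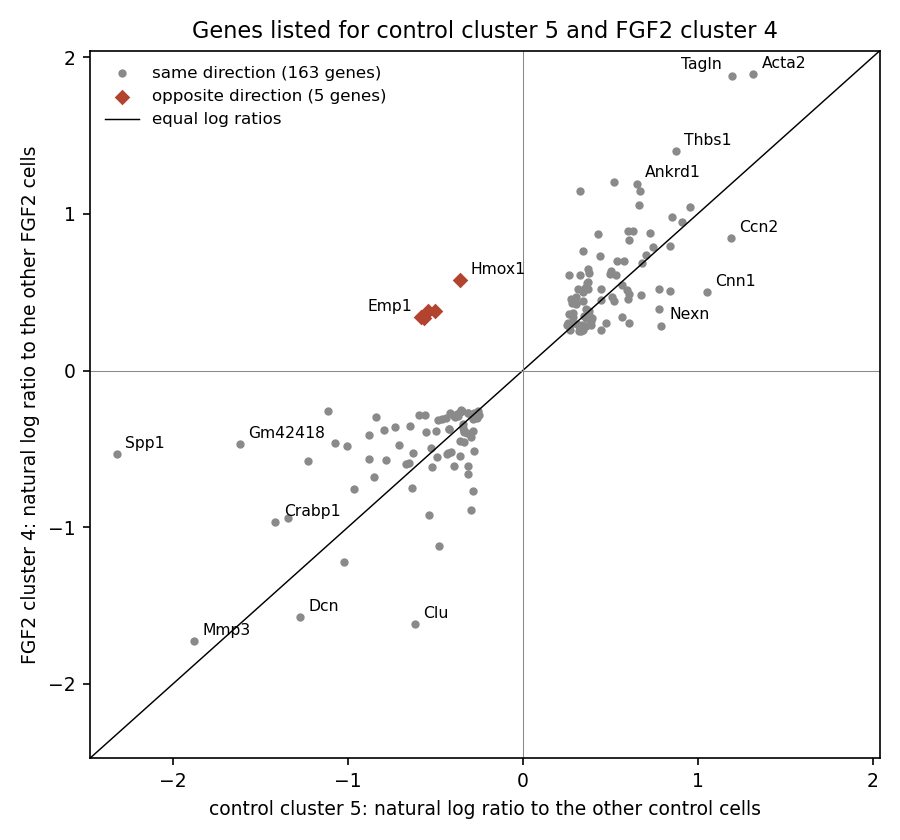
Natural log ratio of 168 genes in control cluster 5 (horizontal) and FGF2 cluster 4 (vertical), each against the other cells of its own library, with the line of equal ratios. Acta2 and Tagln lie above the line, Ccn2, Cnn1 and Nexn below it, and 5 genes have opposite signs.

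Acta2 was 6.62-fold higher in FGF2 cluster 4, with shares of 83.7% there and 27.6% in the other FGF2 cells. Tagln was 6.57-fold higher with shares of 95.9% and 34.4%. The comparison cells differ here: 88.9% of the other control cells had an Acta2 count. Ccn2 was 2.32-fold higher with shares of 53.0% and 6.5%, and Cnn1 1.65-fold with 47.8% and 4.4%. Thbs1 and Ankrd1 were 4.06-fold and 3.29-fold higher in FGF2 cluster 4, and Csf1 3.14-fold. Of the 28 contractile members of cluster 5, 20 were listed for FGF2 cluster 4, all higher, with a median fold of 1.74. Of the 163 higher genes, 33 were listed for no cluster of the FGF2 library, among them Actg2, Myh11 and Lmod1. The same held for 14 of the 207 lower genes. No matching share was computed for all genes of the control table. Such genes did not meet the table's limits in any FGF2 cluster, which does not show that their transcripts were absent or lost with FGF2. The TGF-beta ligand genes Tgfb2, Tgfb3 and Inhba were not listed for FGF2 cluster 4.

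Among the lower genes, Mmp3 was 0.18 of the level of the other cells in FGF2 cluster 4, Dcn 0.21 and Lum 0.30. Spp1, at 10.2-fold lower in cluster 5, was 0.59 of the other cells in FGF2 cluster 4, with 100% of the cells positive on both sides. Clu was 1.85-fold lower in cluster 5 and 0.20 of the other cells in FGF2 cluster 4. In the table of both libraries after integration, the cluster with the highest Acta2 ratio listed 268 of 2802 genes tested. Among them were 121 of the 370 genes, 74 higher and 44 lower in both and 3 opposite (Ccdc80, Gpc3 and Sfrp1). Far fewer genes were tested there than in either library, so this overlap cannot be set beside the others. The integrated ratios are differences of batch-integrated values, and that table includes the control cells.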

How the data were processed

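The series was used through tables of the whole series, and 2 of them hold 1 library each. Reads went through Cell Ranger 4.0 with mm10, per the submitters' processing notes. How cells were filtered, doublets treated, values normalized, clusters formed and p-values computed: not given in the sources used here. Each entry holds a log ratio, fractions of positive cells for both sides, and a p-value, per the file headers. The fractions deposited by the authors are printed as percentages. The log ratios deposited by the authors were read as the natural log: for 8 genes with no positive cell in several clusters, the implied average of the other cells had a median coefficient of variation of 0.000515% with that base and 0.00802% with base 2. The p-values deposited by the authors come from single cells, which are not replicates, and are not printed. All 163 higher and 187 of the 207 lower genes had an adjusted one under 0.05.

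The share of a gene over all cells is the same from every cluster that lists it. From the 2077 genes listed for 2 or more clusters, least squares gave the part of the cells in each cluster, with a residual of 0.0238 percentage points. The parts summed to 100.04%. A level relative to the library average followed from the ratio and the part. On a simulated table of 4419 genes the largest error was 0.0353 points for a part and 0.000651 for a log2 level. Computation used Python 3.11.15, numpy 2.4.6 and pandas 2.3.3. Promoters came from a RefSeq table (GRCm38.p6).

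No test was run, since each group is 1 library. Genes were named by the 15 largest ratios in each direction, the 10 largest share differences in each direction, the 15 largest of those higher in no other control cluster, the 10 largest differences from cluster 3 each way, the 8 patterns most like Acta2, and members of 24 function lists. Some genes that these rules pick are not reported here. The members and lists were chosen with earlier results of these data known.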

Additional observations from a re-analysis of the deposited data

Results flagged for a closer look

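The only results marked were genes with opposite directions in control cluster 5 and FGF2 cluster 4. These 5 genes were lower in control cluster 5 than in the other control cells and higher in FGF2 cluster 4 than in the other FGF2 cells, and the difference was not tested, since each library is 1 sample. Hmox1, the heme-degrading enzyme, was 1.43-fold lower in cluster 5 (82.6% of cells against 72.4%) and 1.78-fold higher in FGF2 cluster 4 (91.9% against 68.2%). Ccl2, a chemokine for monocytes, was 1.72-fold lower (39.2% against 40.0%) and 1.46-fold higher (89.1% against 67.5%). Cxcl5, a chemokine for neutrophils, was 1.65-fold lower (9.8% against 28.6%) and 1.46-fold higher (51.5% against 29.3%). Sfrp1, the Wnt antagonist, was 1.79-fold lower and 1.41-fold higher. Emp1, a membrane protein, was 1.75-fold lower (93.1% against 82.8%) and 1.40-fold higher (96.7% against 79.2%).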

How the results depend on the processing

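Counting from a natural log ratio of 0.5 in size, 45 genes were higher and 61 lower in cluster 5, 37 of the higher ones had their highest ratio there, and the same direction was shared by 32 genes with cluster 3 and 46 with FGF2 cluster 4. These counts are smaller because fewer genes are counted. With a share difference of at least 10 points in the same direction, 140 higher genes remained but only 49 of the 207 lower genes. Taking cluster 4 out of the other cells left 159 higher and 206 lower genes. Only the 60 higher and 99 lower genes that cluster 4 lists could change, and the rest kept their ratio. Cluster 6 in place of cluster 3 gave 73 genes with the same direction of 119 listed for both, against 145 of 148 for cluster 3. The integrated table in place of the FGF2 table gave 118 of 121. FGF2 cluster 13 in place of FGF2 cluster 4, chosen after seeing the data, gave 197. By share of cells, 118 genes were highest in cluster 5. The part of cells in cluster 5 stayed at 8.93% with both other choices of genes. The share of higher genes with a CArG box was 6.35% in a window from 100 bases before to 50 after the start. In that shorter window it was 0% for the lower genes, 0.991% for genes of the control table and 0.888% for all promoters. In the full window it was 20% for higher genes with a natural log ratio of at least 0.5. If the log ratios were base 2, the folds would be 2.49 for Acta2, 2.43 for Actg2, 2.29 for Tagln, 2.28 for Ccn2 and 2.07 for Cnn1. No paired analysis was possible because each group is 1 library and no result comes from a test. The limits are the single library per group, the unknown depth, the unstated number of cells per cluster and the offset in the ratios. A further limit is a list that leaves out genes below its limits.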

Other observations

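Apart from Igf2, the genes below lie outside the function lists. They were picked 1 by 1 from the authors' deposited table after their values were seen, so they describe no gene group, and no test was run on them. Mthfd2, a mitochondrial folate enzyme, was 1.37-fold higher, with a count in 97.1% of the cluster and 60.5% of the other cells. Psat1, Phgdh and Psph, the enzymes of serine synthesis, were 1.31-fold, 1.29-fold and 1.29-fold higher, with shares of 94.4%, 97.1% and 95.5% against 58.9%, 63.7% and 61.2%. In control cluster 7 the shares of Mthfd2, Psat1 and Phgdh were 93.4%, 94.9% and 93.4%. Gars, the tRNA synthetase for glycine, was 1.31-fold higher. Phgdh was also 1.35-fold higher in FGF2 cluster 4, and the other 4 were not listed there.

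Ncam1, an adhesion molecule, was 1.54-fold higher with shares of 96.0% and 55.9%, Map1b, which binds microtubules, 1.50-fold with 96.7% and 52.7%, and Tubb3, a beta tubulin, 1.29-fold with 65.5% and 19.2%. Nes, the intermediate filament protein nestin, was 1.31-fold higher with shares of 78.4% and 36.6%. In Schwann-like cluster 10 the shares were 91.4% for Map1b and 81.0% for Nes.

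H19, an imprinted long non-coding RNA, was 2.21-fold lower at shares of 99.3% and 95.5%, Peg3 2.17-fold at 84.4% and 78.5%, Igf2 1.77-fold at 95.3% and 88.9%, and Peg10 1.40-fold at 12.7% and 31.5%. Ifi202b, Ifi203, Mndal and Ifi204, interferon-inducible genes of 1 family, were 1.65-fold, 1.53-fold, 1.46-fold and 1.32-fold lower. Whether reads were shared between these related genes was not tested, so their separate values are uncertain. The chromatin protein genes Hmgb2, Dek, Hmgb1 and Hmgn3 were 1.83-fold, 1.48-fold, 1.46-fold and 1.44-fold lower.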
